A study of Homo sapiens with 3 samples.

Results

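Epithelial-mesenchymal transition, or EMT, is followed here through 10 genes in HGC-27 cells carrying a control hairpin or one labelled as targeting USP16. The genes are the transcription factor genes ZEB1, ZEB2, SNAI1, SNAI2, TWIST1 and TWIST2, the cadherin genes CDH1 and CDH2, and the mesenchymal genes VIM and FN1. They were chosen by symbol, and all 10 had 1 row each among the 58735 genes of the deposited table. In EMT, epithelial cells give up cell-cell junctions and take on a migratory, mesenchymal character. The ZEB, SNAI and TWIST factors drive it, largely by binding E-box sequences and repressing CDH1, which encodes the junction protein E-cadherin. Loss of E-cadherin with gain of N-cadherin, encoded by CDH2, is called the cadherin switch, and gain of vimentin and fibronectin accompanies it.

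RNA-seq was done on 3 libraries of the established gastric cancer line HGC-27. The shControl library is labelled wild type and its library name reads Scramble, and 2 libraries, shUSP16-1 and shUSP16-2, are labelled with a short hairpin RNA against USP16, a histone H2A deubiquitinase gene. Nothing in the labels says whether the numbers stand for different hairpins, cultures or repeats. The p-values therefore measure the spread between these libraries alone, and that spread may be technical. The protocol given for all 3 libraries also names 1 µM dexamethasone and 0.5 mM isobutylmethylxanthine until day 2, followed by 10 µg/ml insulin for 2 days, in 10% serum. Whether these cells received that treatment is unclear.

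Values are FPKM, fragments per kilobase of gene length scaled to library size, and the whole reads behind them were recovered, between 29530581 and 31187845 per library. USP16 itself was at 6.28 FPKM in shControl, 4.29 in shUSP16-1 and 5.98 in shUSP16-2, or 0.683 and 0.952 times shControl; it was barely lower in the library labelled shUSP16-2, so directions here rest on the labels. limma, a linear model that shares information on the spread between genes, was fitted to log2(FPKM + 1) and adjusted over 13852 genes (mean FPKM of 1 or more). It called 0.00% of genes (lowest adjusted p = 0.164), while 14.5% had an unadjusted p under 0.05. Restricted to protein-coding genes, limma called 0.434%. On recovered reads, limma voom, which weights each log count by its precision, called 2.51% with the authors' totals and 4.02% with sums of reads as totals. The authors' totals set shControl lower than sums of reads do, and moving to sums of reads shifted the median difference of all tested genes by -0.09 on the log2 scale.

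Across the 10 genes, the levels ranged from VIM and TWIST1, which in shControl lay above 99.2% and 99.3% of the 16561 protein-coding genes read in any library, to 3 genes at or near 0. These 2 genes were followed in every library by SNAI1, ZEB1, SNAI2, ZEB2, FN1 and CDH2 in that order, and the ranges of neighbours from TWIST1 down to CDH1 did not overlap, though CDH2 and CDH1 had 2 reads each in shUSP16-1. VIM and TWIST1 did overlap: TWIST1 had 1.15 times the FPKM of VIM in shControl but 0.911 times in shUSP16-1 and 0.722 times in shUSP16-2. FPKM divides by the authors' gene length, which is longer than the principal transcript for all but SNAI1. Per kilobase of the principal transcript (the best APPRIS class, then the longest, in GENCODE release 29), VIM was above TWIST1 in all 3 libraries and the order of the others down to CDH1 was the same.

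**Figure D1:**
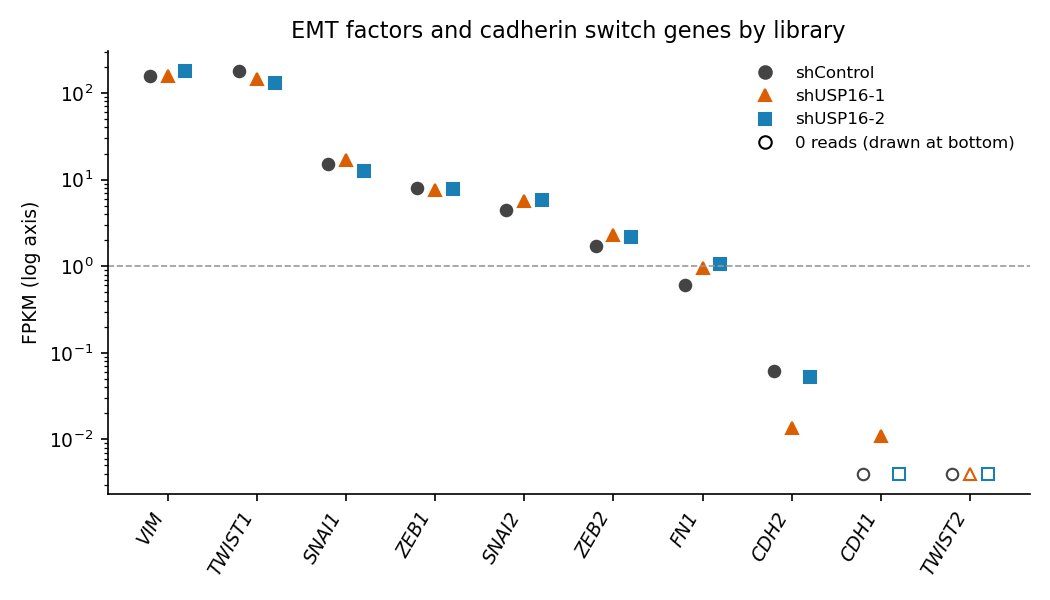
FPKM of each of the 10 genes (log axis) in shControl, shUSP16-1 and shUSP16-2, 1 point per library; open symbols mark 0 reads and are drawn at the bottom, and the dashed line marks 1 FPKM. VIM and TWIST1 lie above 130 FPKM in every library, and CDH2, CDH1 and TWIST2 lie below 0.1 FPKM in every library.

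Differences from shControl were small beside this range of levels. In bulk RNA, fewer cells of a kind and less RNA per cell cannot be told apart. Of the 10 genes, 6 passed the filter on low values, so 4 (FN1, CDH2, CDH1 and TWIST2) were not tested. limma called 0 of the 6, against 0.00% of all genes. An unadjusted p under 0.05 was found for 1 (TWIST1), against 14.5% of all tested genes. A 2-fold distance from shControl in both libraries was reached by 0 of the 6, against 0.570% of all tested genes. Of the 6, 3 (SNAI2, ZEB2 and VIM) were higher than shControl in both libraries labelled shUSP16, where 44.9% of all tested genes were, and 2 (TWIST1 and ZEB1) were lower in both, where 32.4% were. With sums of reads VIM was no longer higher in both, leaving 2 higher, against 31.2% of all tested genes, and 2 lower, against 45.5%. Their median difference was 0.04, as was that of all tested genes. An exact permutation test over 1 against 2 libraries cannot give a one-sided p under 0.333, so none is given.

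**Figure D2:**
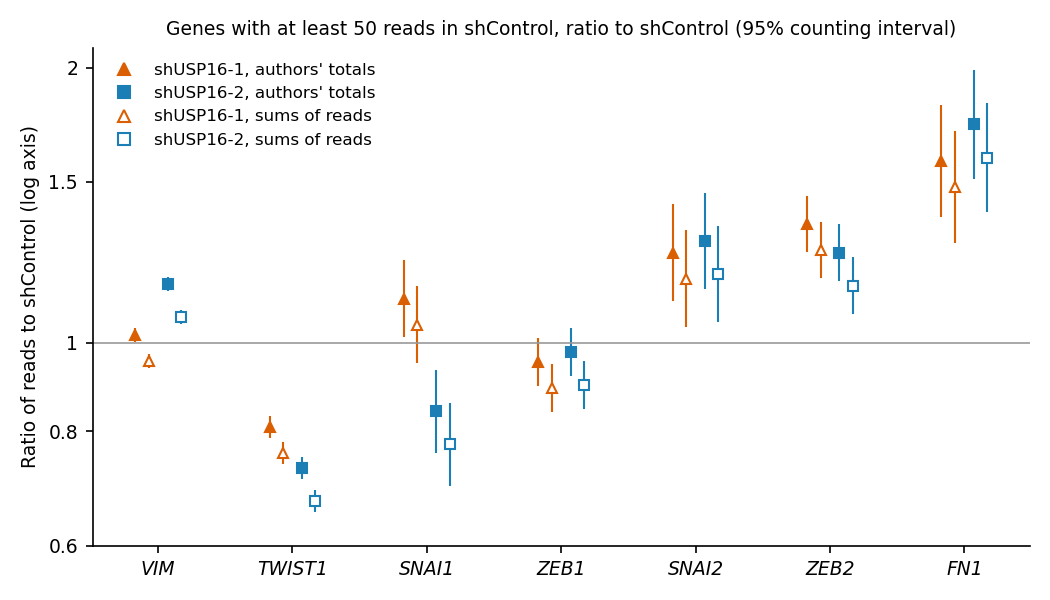
Ratio of reads to shControl (log axis) for the 7 genes with at least 50 reads in shControl, with filled symbols scaled by the authors' totals and open symbols by sums of reads; bars are exact binomial 95% intervals and cover counting error only. TWIST1 lies below 1 and SNAI2, ZEB2 and FN1 lie above 1 in both libraries under both scalings, while SNAI1 lies on either side of 1.

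CDH1 and CDH2, the 2 ends of the cadherin switch, were both close to absent. CDH1 (ENSG00000039068, plus strand of chromosome 16, 68737225 to 68835548, GRCh38) had 0 reads in shControl and shUSP16-2, and 2 in shUSP16-1. At this depth a count of 0 allows up to 3 reads, or 0.0149 FPKM in shControl and 0.0157 FPKM in shUSP16-2, for counting error only. VIM was therefore at least 10409-fold higher than CDH1 in shControl and at least 11499-fold higher in shUSP16-2.

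CDH2 (ENSG00000170558, minus strand of chromosome 18, 27950966 to 28177446) was read 10 times in shControl, 2 times in shUSP16-1 and 8 times in shUSP16-2. These are 0.0621, 0.0135 and 0.0521 FPKM. Set against shControl, the reads of shUSP16-1 had a ratio of 0.218 (95% interval 0.0232 to 1.02) and those of shUSP16-2 a ratio of 0.840 (0.288 to 2.36). These and the later intervals of ratios are exact binomial intervals and cover counting error only. No difference was detectable at this depth with the authors' totals; with sums of reads the interval in shUSP16-1 ended at 0.958. Neither E-cadherin nor N-cadherin mRNA thus reached 0.1 FPKM in any library.

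Other cadherin genes were expressed. This list, all 23 protein-coding genes with a CDH symbol, was drawn up after the values were seen. Only 4 of them, CDH24, CDH10, CDH6 and CDH7, had a mean of 1 FPKM or more, and the other 19 stayed below 0.558 FPKM in each library. CDH24 was at 13.5, 14.3 and 14.8 FPKM in shControl, shUSP16-1 and shUSP16-2, CDH10 at 10.6, 11.0 and 9.78, and CDH7 at 2.60, 2.82 and 2.60. These are type II cadherin genes, and each stayed within a narrow range across the 3 libraries.

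CDH6, encoding K-cadherin, another type II cadherin, was the one that differed most. It was at 6.87 FPKM (2770 reads) in shControl, 11.1 FPKM (4124 reads) in shUSP16-1 and 13.3 FPKM (5090 reads) in shUSP16-2. Both libraries labelled shUSP16 lay above shControl, by a log2 difference of 0.74 (SE 0.15). limma did not call it over all genes (adjusted p = 0.278), nor among protein-coding genes (adjusted p = 0.0524). limma voom on recovered reads did, with the authors' totals (adjusted p = 0.00489) and with sums of reads (adjusted p = 0.00290).

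**Figure D3:**
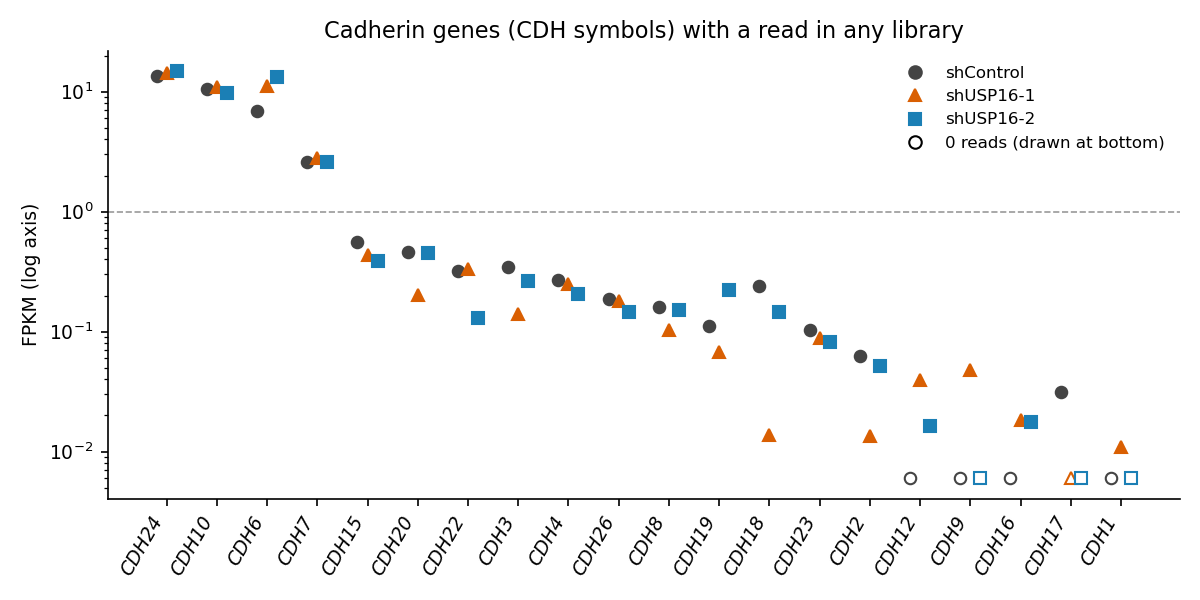
FPKM (log axis) of the 20 cadherin genes with a read in any library, 1 point per library, with open symbols at the bottom for 0 reads and a dashed line at 1 FPKM. CDH24, CDH10, CDH6 and CDH7 are the 4 above the line, CDH6 is lower in shControl (6.87 FPKM) than in the other libraries, and CDH1 and CDH2 are among the lowest.

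VIM encodes vimentin, the intermediate filament protein of mesenchymal cells, and was among the most abundant mRNAs. VIM (ENSG00000026025, plus strand of chromosome 10, 17228259 to 17237593) was at 155 FPKM in shControl, 159 in shUSP16-1 and 180 in shUSP16-2. Of these, shUSP16-2 was the highest, and shUSP16-1 was close to shControl. The log2 difference was 0.12 (SE 0.12) and was not called (limma adjusted p = 0.671). Relative to shControl, shUSP16-1 stood at 1.02 (95% interval 1.00 to 1.04) and shUSP16-2 at 1.16 (1.14 to 1.18) with the authors' totals, but 0.956 and 1.07 with sums of reads, so the direction in shUSP16-1 depended on the scaling.

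FN1 encodes fibronectin, a matrix glycoprotein that mesenchymal cells secrete. In contrast to VIM, FN1 (ENSG00000115414, minus strand of chromosome 2, 215360440 to 215436172) was low, at 0.605 FPKM in shControl, 0.957 in shUSP16-1 and 1.05 in shUSP16-2, from 341, 495 and 563 reads. Both libraries labelled shUSP16 were above shControl, and they were close to each other. Set against shControl, the reads of shUSP16-1 had a ratio of 1.58 (95% interval 1.37 to 1.82) and those of shUSP16-2 a ratio of 1.73 (1.51 to 1.99). With sums of reads the ratios were 1.48 and 1.60. This was the largest ratio among the genes here with at least 50 reads in shControl.

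The mean of FN1, 0.870 FPKM over a gene length of 17315 bases, was under the filter. A fit of limma voom to the 14038 genes averaging 50 reads or more, added after seeing the data, gave FN1 a log2 difference of 0.73 (SE 0.23), not called (adjusted p = 0.0798; 0.129 with sums of reads). That fit called 3.23% of genes with the authors' totals and 4.54% with sums of reads (3.41% lower). limma with no filter on low values called 0 of 32001 genes, so it says little about FN1 (adjusted p = 0.445).

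ZEB1 and ZEB2 encode zinc finger homeobox repressors that bind pairs of E-boxes and hold CDH1 silent. ZEB1 (ENSG00000148516, plus strand of chromosome 10, 31318495 to 31529814) was at 7.91 FPKM in shControl, 7.53 in shUSP16-1 and 7.72 in shUSP16-2. All 3 values lay within 5% of each other. The log2 difference was -0.05 (SE 0.12; limma adjusted p = 0.878), and both counting intervals of the ratio included 1 with the authors' totals, at 0.896 to 1.01 and 0.920 to 1.04. With sums of reads they did not, at 0.839 to 0.949 and 0.846 to 0.955.

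ZEB2 (ENSG00000169554, minus strand of chromosome 2, 144364364 to 144524583) was lower than ZEB1 in every library, at 1.72 FPKM in shControl, 2.31 in shUSP16-1 and 2.16 in shUSP16-2. Both libraries labelled shUSP16 were above shControl. The ratio was 1.35 in shUSP16-1 (95% interval 1.26 to 1.45) and 1.26 in shUSP16-2 (1.17 to 1.35), and with sums of reads 1.26 and 1.16. limma did not call the log2 difference of 0.25 (SE 0.17; adjusted p = 0.521), and voom with the authors' totals gave an adjusted p of 0.171. The distance between the ZEB genes depended on the length used: in shControl ZEB1 was 4.61-fold above ZEB2 by FPKM and 2.80-fold per kilobase of the principal transcripts.

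The ZEB genes and the miR-200 family of microRNAs repress each other, and the mature family members are shown because their seeds (bases 2 to 8, in capitals) set them in 2 groups that both have matches in ZEB1 and ZEB2. The sequences are from RefSeq on GRCh38.p14, 5′ to 3′.
hsa-miR-200b-3p: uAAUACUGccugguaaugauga
hsa-miR-200c-3p: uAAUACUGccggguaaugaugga
hsa-miR-429: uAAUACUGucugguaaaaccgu
hsa-miR-200a-3p: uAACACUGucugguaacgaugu
hsa-miR-141-3p: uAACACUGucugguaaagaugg
The first 3 share the seed AAUACUG and the other 2 share AACACUG. Their genes lie in 2 clusters: MIR200B, MIR200A and MIR429 on chromosome 1 (mature sequences at 1167160 to 1167181, 1167916 to 1167937 and 1169055 to 1169076) and MIR200C and MIR141 on chromosome 12 (6963742 to 6963764 and 6964155 to 6964176), all on the plus strand.

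The reverse complements of the 2 seeds, written as the DNA letters CAGTATT and CAGTGTT, were counted in the principal GENCODE transcript of each gene, on the transcript strand and over its whole length. ZEB1 held 5 of the first and 7 of the second in 5423 bases, and ZEB2 held 6 and 7 in 9541 bases. As many matches as in ZEB1 were found in 0.0325% of the 3073 principal transcripts of similar length (0.8 to 1.2 times, ZEB1 included). As many as in ZEB2 were found in 0.0998% of 1002, ZEB2 included. Each share thus counts the gene's own transcript. FN1 held 4 matches and SNAI2 held 1, and the other 6 genes, TWIST1, SNAI1, TWIST2, CDH1, CDH2 and VIM, held 0; 38.6% of all 19938 principal transcripts held at least 1. A match describes the letters only and is not a measured binding site. The precursor rows of the 5 microRNAs had 0 or 1 reads in each library, and MIR200CHG, the host gene of the chromosome 12 cluster, had 0 reads in shControl and shUSP16-1 and 2 in shUSP16-2. Reads over these rows do not measure the mature microRNAs.

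SNAI1 and SNAI2 encode Snail and Slug, zinc finger repressors that bind the E-boxes of CDH1. SNAI1 (ENSG00000124216, plus strand of chromosome 20, 49982999 to 49988886) was at 15.0 FPKM in shControl, 16.8 in shUSP16-1 and 12.7 in shUSP16-2. Here the control lay between the libraries labelled shUSP16. These differed from each other more than from shControl, with a ratio of shUSP16-2 to shUSP16-1 of 0.753 (95% interval 0.680 to 0.835). limma gave a log2 difference of -0.04 (SE 0.19; adjusted p = 0.932).

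SNAI2 (ENSG00000019549, minus strand of chromosome 8, 48917604 to 48921740) was at 4.46 FPKM in shControl, 5.60 in shUSP16-1 and 5.77 in shUSP16-2. Both libraries labelled shUSP16 were above shControl and differed little from each other, with a ratio of 1.03 (0.917 to 1.16). The ratio to shControl was 1.26 (1.11 to 1.42) in shUSP16-1 and 1.29 (1.15 to 1.46) in shUSP16-2, and with sums of reads 1.18 and 1.19. limma did not call the log2 difference of 0.29 (SE 0.13; adjusted p = 0.367). Whether SNAI1 and SNAI2 responded differently was not tested.

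TWIST1, a basic helix-loop-helix factor gene of mesoderm that also represses CDH1, was the most abundant of the EMT factor mRNAs per length. TWIST1 (ENSG00000122691, minus strand of chromosome 7, 19020991 to 19117672) was at 178 FPKM in shControl, 144 in shUSP16-1 and 130 in shUSP16-2, from 11800, 8771 and 8198 reads. It was 11.8-fold above SNAI1 in shControl, 8.59-fold in shUSP16-1 and 10.3-fold in shUSP16-2, and even in shUSP16-2 98.8% of protein-coding genes lay below it. TWIST2, its close paralog gene (ENSG00000233608, plus strand of chromosome 2, 238848032 to 238910543), had 0 reads in all 3 libraries, which allows up to 0.0491, 0.0535 and 0.0515 FPKM. TWIST1 was therefore at least 3633-fold higher than TWIST2 in shControl, 2701-fold in shUSP16-1 and 2524-fold in shUSP16-2.

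On the log2(FPKM + 1) scale TWIST1 was also the tested gene here with the largest difference from shControl. It was lower in both libraries labelled shUSP16. Set against shControl, the reads of shUSP16-1 had a ratio of 0.810 (95% interval 0.788 to 0.833) and those of shUSP16-2 a ratio of 0.730 (0.709 to 0.751). With sums of reads the ratios were 0.758 and 0.671. The 2 libraries differed from each other as well, with a ratio of 0.901 (0.874 to 0.929). The log2 difference was -0.38 (SE 0.12), and 8.83% of tested genes had a lower one. By voom with the authors' totals ZEB2 was as far from shControl as TWIST1, at 0.38 against -0.38.

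limma did not call TWIST1 over all genes (adjusted p = 0.298) or among protein-coding genes (adjusted p = 0.154). limma voom on recovered reads did not call it with the authors' totals (adjusted p = 0.114) and did with sums of reads (log2 difference -0.49, adjusted p = 0.0266), where 3.02% of all tested genes were called lower. Its adjusted p over the alternatives with a test ran from 0.0221 to 0.402. By the 2 log2 differences, the nearest protein-coding genes to TWIST1 among the 3 libraries were ETNK2, FAM111A and AHNAK2, at distances of 0.00807, 0.0108 and 0.0115, with 29 genes within 0.05. AHNAK2, a large scaffold-like protein gene, was at 4.35, 3.31 and 2.92 FPKM.

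Antisense genes overlap several of these loci, and no source used here says whether the counting used strand, so reads of partners cannot be told apart where they overlap. ZEB1-AS1 was read 367, 268 and 207 times, with ratios of 0.796 (95% interval 0.677 to 0.934) and 0.592 (0.497 to 0.704), while ZEB1 stayed near its control level. VIM-AS1 had 98, 46 and 43 reads, with ratios of 0.511 (0.352 to 0.733) and 0.461 (0.314 to 0.666), while VIM was not lower with the authors' totals. Both antisense genes were thus lower than in shControl in both libraries beyond counting error. limma did not call ZEB1-AS1 (log2 difference -0.38, adjusted p = 0.419), and VIM-AS1 was under the filter. The reads of these 2 genes in shControl came to 16.5% of those of ZEB1 and 0.376% of those of VIM. AC003986.2, antisense within the TWIST1 span, had 159, 125 and 98 reads, 1.35% of those of TWIST1 in shControl. ZEB2-AS1 had 0, 4 and 10 reads, and each other overlapping gene had at most 13. The processed pseudogenes SNAI1P1 and ZEB2P1 had 0 reads in every library.

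The other genes of the transition were grouped in lists by role. The TWIST proteins act as dimers with E proteins, which the ID proteins sequester. Of 9 such genes 6 were tested, and 5 were higher in both libraries labelled shUSP16, 0 lower, with a median log2 difference of 0.35. Over all tested genes, 44.9% were higher in both and 32.4% lower in both, with a median of 0.04. With sums of reads 4 of the 6 were higher and 1 lower, against 31.2% and 45.5% of all tested genes. ID1 was at 34.9 FPKM in shControl, 60.1 in shUSP16-1 and 55.8 in shUSP16-2, and ID3 at 28.1, 47.0 and 45.8. Both are ID inhibitor genes, and in both the control was the lowest library. ID2 was at 24.3, 33.3 and 34.2 FPKM. The E protein gene TCF3 was at 67.9, 83.6 and 76.2 FPKM. limma called 0 of the 6 over all genes, with 3 at an unadjusted p under 0.05, where 14.5% of all tested genes were. ID1 and ID3 were called by limma among protein-coding genes (adjusted p = 0.0487 for both), where 0.434% of genes were called. Both were also called by voom with either total, which called 2.51% of all genes with the authors' totals and 4.02% with sums of reads.

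TGF-beta signalling is the best known inducer of the transition, and 18 of its 21 listed genes were tested. Of these 9 (50%) were higher in both and 4 (22.2%) lower in both, near the 44.9% and 32.4% of all tested genes, with a median of 0.10 against 0.04. Under sums of reads 7 were higher and 6 lower, against 31.2% and 45.5%. SMAD7, the inhibitory SMAD gene, was at 1.69 FPKM in shControl, 3.02 in shUSP16-1 and 2.56 in shUSP16-2. LTBP1, a latent TGF-beta binding protein gene, was at 47.6, 65.1 and 64.4 FPKM. Both had shControl as the lowest library.

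The corepressor gene TGIF1 went the other way, at 2.94, 1.87 and 1.88 FPKM, as did SKIL, at 7.41, 5.84 and 5.60 FPKM. The receptor genes were uneven in level: TGFBR1 was at 11.9, 11.8 and 13.9 FPKM, and TGFBR2 was read 54, 10 and 24 times. limma called 0 of the 18, with 4 at an unadjusted p under 0.05, where 14.5% of all tested genes were. voom called 0 with the authors' totals and 1, TGIF1, with sums of reads (adjusted p = 0.0241), against 2.51% and 4.02% of all genes.

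Corepressors are recruited by SNAI and ZEB proteins to the genes they silence. Of 14 listed genes 13 were tested, 10 were higher in both and 0 lower in both, against 44.9% and 32.4% of all tested genes, with a median of 0.23 against 0.04. Under sums of reads 9 were higher and 2 lower, against 31.2% and 45.5%. AJUBA, a LIM protein gene, was at 4.01, 5.27 and 5.55 FPKM, KDM1A, encoding the histone demethylase LSD1, at 27.0, 32.4 and 34.2, EHMT2, a histone H3 methyltransferase gene, at 11.9, 14.4 and 14.9, and SIN3A, a corepressor scaffold gene, at 6.75, 8.32 and 8.38. Genes for turnover of SNAI and TWIST proteins were divided, with 6 (46.2%) higher and 4 (30.8%) lower in both among 13 tested. These were near the shares of all tested genes, and the median was 0.05. With sums of reads 4 were higher and 6 lower, against 31.2% and 45.5%. PSMD14, a proteasomal deubiquitinase gene, was at 7.15, 8.31 and 9.42 FPKM, CSNK1A1, encoding casein kinase 1 alpha, at 9.43, 11.4 and 11.0, and PAK1, a kinase gene, at 5.78, 6.98 and 7.29. PRKD1, encoding protein kinase D1, was lower in both, at 3.22, 2.28 and 2.89.

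The list of catenin genes, which also held VCL and AFDN, had 3 (42.9%) higher and 2 (28.6%) lower in both of 7. These were near the shares of all tested genes, and the median was 0.00. With sums of reads 2 were higher and 4 lower, against 31.2% and 45.5% of all tested genes. CTNND2, encoding delta-catenin, was at 2.42, 1.57 and 1.53 FPKM, AFDN, encoding afadin, at 5.98, 5.51 and 4.92, CTNNB1, encoding beta-catenin, at 12.8, 14.9 and 14.7, and VCL, encoding vinculin, at 11.2, 12.0 and 15.5. Lamin and other intermediate filament genes besides VIM, listed with PLEC, had 5 of 6 higher in both and 0 lower. Of all tested genes 44.9% and 32.4% were. The list median was 0.20. With sums of reads 2 were higher and 0 lower in both, against 31.2% and 45.5% of all tested genes. LMNB2, encoding lamin B2, was at 59.5, 79.4 and 82.0 FPKM, and LMNB1 at 56.1, 60.8 and 79.0. LMNA, encoding lamins A and C, was at 40.8, 49.4 and 41.4 FPKM, and PLEC, encoding the filament linker plectin, at 15.7, 20.7 and 16.9. limma and voom with either total called 0 genes of the corepressor, turnover, catenin and filament lists. An unadjusted limma p under 0.05 was found for 2 of their genes, against 14.5% of all tested genes.

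**Figure D4:**
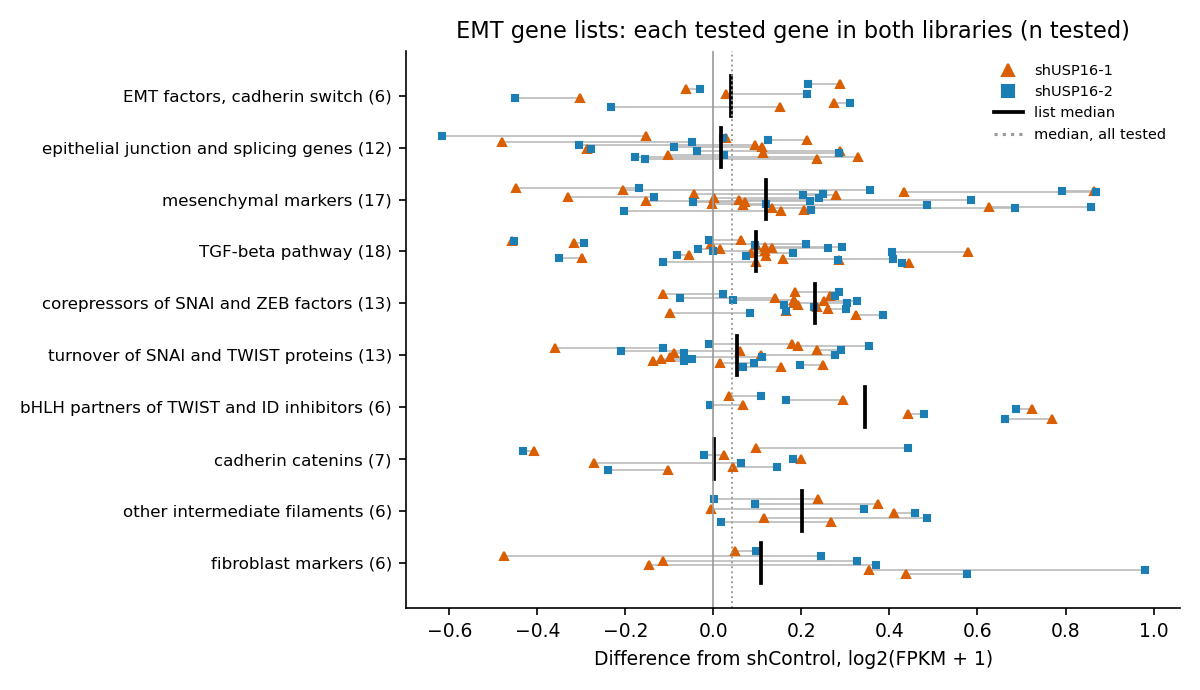
Difference from shControl on the log2(FPKM + 1) scale for each tested gene of each list, with a triangle for shUSP16-1 and a square for shUSP16-2 joined by a line; the black bar is the list median of the mean differences and the dotted line that of all tested genes (0.04). The TWIST partner and ID list has its median at 0.35, and the 6 tested EMT factor and cadherin switch genes have theirs at 0.04.

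Mesenchymal markers included abundant mRNAs. Of 26 listed, 17 were tested, 9 (52.9%) were higher in both libraries and 2 (11.8%) lower in both, against 44.9% and 32.4% of all tested genes, with a median of 0.12 against 0.04. Scaled by sums of reads, 7 were higher and 3 lower, against 31.2% and 45.5%. S100A4, a calcium-binding protein gene of fibroblasts and motile cells, was at 10.3, 19.6 and 18.6 FPKM in shControl, shUSP16-1 and shUSP16-2. POSTN, encoding the matrix protein periostin, was at 93.5, 126 and 171 FPKM. BGN, encoding the matrix proteoglycan biglycan, was at 97.5, 113 and 114. In all 3 the control was lowest, and for POSTN the libraries labelled shUSP16 were also apart from each other by a ratio of 1.36. limma called 0 of the 17 over all genes, with 3 at an unadjusted p under 0.05, where 14.5% of all tested genes were. Among protein-coding genes limma called S100A4 (adjusted p = 0.0248), where 0.434% of genes were called. voom called 3 with the authors' totals (POSTN, S100A4 and CDH6), against 2.51% of all genes, and 2 with sums of reads (POSTN and CDH6), against 4.02%.

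General epithelial genes were checked in these libraries labelled as gastric cancer cells. The simple epithelial keratin genes were at or near 0: KRT18, KRT19, KRT7 and KRT20 had between 0 and 4 reads in each library and KRT8 had 27, 12 and 9. EPCAM, an epithelial adhesion molecule gene, had 49, 30 and 12 reads, with ratios to shControl of 0.667 (0.409 to 1.07) and 0.257 (0.125 to 0.491). GRHL2, an epithelial transcription factor gene, had 0 in each library. Other low genes of the junction and splicing list went both ways. AP1M2 had 42, 29 and 18 reads, whereas the claudin gene CLDN1 had 40, 59 and 57. The splicing regulator gene ESRP2 was also higher in both, with 40, 57 and 57 reads. Of 35 junction and splicing genes, 22 stayed below 1 FPKM in every library and 12 had a mean of 1 FPKM or more. Some junction genes were present, such as the desmosomal DSG2 at 21.5, 23.3 and 26.4 FPKM and DSP at 14.0, 17.4 and 13.7. PARD3, a polarity gene, was at 7.50, 8.86 and 8.26 FPKM, the tight junction gene TJP3 at 2.51, 2.15 and 1.29, and GRHL1, a relative of GRHL2, at 2.00, 1.46 and 1.48. Of the 12 tested, 3 (25.0%) were higher and 3 (25.0%) lower in both, against 44.9% and 32.4% of all tested genes. With sums of reads 2 were higher and 5 lower, against 31.2% and 45.5%. limma and voom called 0, with 0 at an unadjusted limma p under 0.05, where 14.5% of all tested genes were.

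Markers of other cell types were also read. All 6 fibroblast markers were expressed, with summed levels of 295 FPKM in shControl, 287 in shUSP16-1 and 393 in shUSP16-2 and 0 of them at 0. The collagen gene COL3A1 made up most of the sum, at 192, 173 and 248 FPKM. Of the 6, 3 were higher in both and 0 lower in both, against 44.9% and 32.4% of all tested genes: the collagen I chain genes COL1A1, at 52.2, 71.1 and 78.4 FPKM, and COL1A2, at 5.23, 6.97 and 11.3, and the growth factor receptor gene PDGFRA, at 4.45, 4.64 and 4.83. The other 3 were mixed, among them LUM at 32.2, 22.9 and 38.3 FPKM. With sums of reads 2 were higher and 1 lower in both, against 31.2% and 45.5%. The median difference was 0.108 with the authors' totals and 0.006 with sums of reads. limma called 0 over all genes, with 1 at an unadjusted p under 0.05, where 14.5% of all tested genes were. voom called COL1A1 (adjusted p = 0.0336) and COL1A2 (adjusted p = 0.0449) with the authors' totals, and both with sums of reads, against 2.51% and 4.02% of all genes. Their part in the differences of FN1 and TWIST1 was not tested.

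The 5 immune markers summed to 0.936, 1.22 and 1.05 FPKM, with the pan-leukocyte gene PTPRC and the T cell gene CD3E at 0 reads in every library and CD14, a monocyte gene, at 0, 24 and 19 reads. The 4 endothelial markers summed to 0.0207 FPKM or less, with PECAM1, KDR and CDH5 at 0.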

How the data were processed

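RNA of 3 HGC-27 libraries was sequenced, and their titles gave 1 shControl and 2 shUSP16. The authors deposited FPKM values, 1 column per library, per the file headers. No aligner, counter or strand setting is given in the sources used here. Mouse builds (GRCm38, mm10) stand in the submitters' processing notes, whereas the 58735 gene IDs and coordinates all equal human GENCODE release 29 on GRCh38. FPKM times gene length gave whole multiples of 1 step per library for 100% of values above 0 (tolerance 0.01 reads), and so whole reads. The authors' FPKM imply totals 1.08, 1.01 and 0.994 times the sums of reads in shControl, shUSP16-1 and shUSP16-2.

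limma 3.58.1 (R 4.3.3) with a variance trend was fitted to log2(FPKM + 1), which understates changes of low genes, for genes averaging 1 FPKM or more, with Benjamini-Hochberg adjustment over all of them and a threshold of 0.05. Only the pair of shUSP16 libraries gives spread (1 residual degree of freedom, 4.05 prior), and the control was assumed to vary like them. Exact binomial 95% intervals were computed in scipy 1.17.1 under Python 3.11.15. Alternatives were the pseudocount, filters, scalings, protein-coding genes, voom on recovered reads and leaving out each shUSP16 library. Fits were tested on simulated data. The genes and lists were chosen with earlier results of these data known. Named genes were the 10, USP16, up to 4 per list ranked by the library with the smaller change, and overlapping genes. The 3 genes nearest to the tested gene that differed most on the log2(FPKM + 1) scale were also named. The others, such as CDH10, CDH7, DSP, EPCAM, CLDN1, ESRP2, the keratins, TGFBR1, TGFBR2, COL3A1, LUM, CD14 and the microRNA genes, were named after their values were seen.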

Additional observations from a re-analysis of the deposited data

How the results depend on the processing

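The number of genes called by limma, 0 over all genes, was 13 with a mean of at least 5 FPKM, 48 among protein-coding genes, 348 and 557 by voom with the authors' totals and with sums of reads, and 453 and 638 by voom on genes with at least 50 reads, the last 2 added after seeing the data. Of the 10 genes, 0 were called, but 1, TWIST1, by voom with sums of reads and 1 by voom with at least 50 reads and sums of reads (log2 difference -0.49 in both). In the other lists 0 were called, against 3 among protein-coding genes, 7 and 7 by voom, and 7 and 9 by voom with at least 50 reads. The shares of all genes called were 0.434% among protein-coding genes, 2.51% and 4.02% by voom, and 3.23% and 4.54% by voom with at least 50 reads. The cause of these differences was not tested. Over the alternatives with a test, the sign of each of the 6 tested genes' log2 difference held, and 57 of 59 values kept their side of the threshold. TWIST1 ranged from -0.49 to -0.38 there, and VIM from 0.01 to 0.12. In limma, changing the filter or keeping only protein-coding genes leaves each log2 difference as it was, so those settings could not change a sign. limma with a pseudocount of 0.1, no filter, sums of reads or median-of-ratios scaling called 0 genes of all tested. Staying short of the threshold under those settings therefore says little about any 1 gene. With either shUSP16 library left out there are no residual degrees of freedom, so only values are had. Without replicate 1 and without replicate 2, TWIST1 was at -0.45 and -0.30, VIM at 0.21 and 0.03, and SNAI1 at -0.23 and 0.15, so the sign of SNAI1 depends on the library; the other 5 kept theirs, and 0 of the 6 were then 2-fold from shControl. No paired analysis was possible because the single control carries no replicate number. CDH1, CDH2 and TWIST2 are limited by depth.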
